A study of Drosophila melanogaster with 12 samples.

Results

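The genes described here are 38 DNA damage checkpoint and repair genes of Drosophila melanogaster, named in a list drawn up for this work and looked up by gene symbol in the deposited RNA-seq table. The table held 36 of the 38, among 14303 genes in all. The symbols PolQ and mus205 were not found. The identifier of PolQ (FBgn0002905) is listed under the symbol DNApol-theta, and mus205 could not be matched to an identifier in the reference tables used here.

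The RNA came from ovaries of 4-day-old females, with about 5 ovaries per sample according to the labels. The mutant females carried the D1 Kyoto allele over D1 Bsc666, and the heterozygous control females carried D1 Kyoto over the TM6C balancer. All of them were also chk2 mutant, and chk2 is the gene named lok in the table. Each genotype had 3 ribosomal RNA-depleted libraries. D1 is a protein that binds satellite DNA repeats, and the chk2 mutation was used so that germ cells with active transposons would not arrest. D1 Bsc666 is a chromosomal deficiency, and D1 lies on chromosome arm 3R. Of the 10 members on that arm, the nearest to D1 was Irbp, 2.17 Mb away.

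The deposited table gives 1 mean normalized count for each gene over all 6 RNA-seq libraries of both genotypes, and no value for any single library. Its remaining numeric columns hold the study's own comparison of the genotypes and were not used. The values below are therefore the authors' means over mutant and control ovaries together. They have no replicate error, the depth of the libraries is unknown, and they do not say whether any gene differed between the genotypes. Fewer cells of a type and less RNA per cell cannot be told apart in such samples.

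Germ cells answer broken DNA with kinases. The sensor kinases ATM and ATR, encoded by tefu and mei-41, activate the effector kinases Chk2 and Chk1, encoded by lok and grp, and these stop the cell cycle or act through the transcription factor p53. In the fly ovary, unrepaired breaks of meiotic recombination and breaks made by mobile transposons both act through this pathway and can halt oogenesis. The breaks themselves are mended by homologous recombination or by end joining, while mismatch, excision and crosslink repair deal with damaged or mispaired bases.

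Marker genes matched the ovary label. The 6 germline markers had mean normalized counts of 1957 to 36523, and the 8 follicle cell markers had 646 to 217259. The 6 testis markers had 2.53 to 11.2, although the series' design text calls the tissue testes. Muscle sheath markers (4 genes) had 122 to 3974, fat body markers (3 genes) 1.79 to 8.14 and hemocyte markers (2 genes) 24.1 to 179. How far somatic cells add to the members' levels was not tested.

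The 36 genes together made up 0.331% of the summed mean normalized counts. To compare genes, each mean was divided by the length of the gene's merged annotated exons in kilobases. On this scale the members had a median of 1083 normalized counts per kilobase (quartiles 664 to 1517), against 329 for the 12160 protein-coding genes of the table (quartiles 11.0 to 1450). Of the 36, 35 lay above the protein-coding median, 11 lay above the 75th percentile and 2 above the 90th percentile. Many protein-coding genes are close to silent in ovaries. Beside the 9623 protein-coding genes with a mean of at least 10, whose median was 705 per kilobase, 24 of the 36 members lay above the median. The quartiles of the members differed by 2.29 times, and those of the 9623 genes by 17.9 times. These are descriptions, since genes are not replicates and the members were picked for their function.

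**Figure D1:**
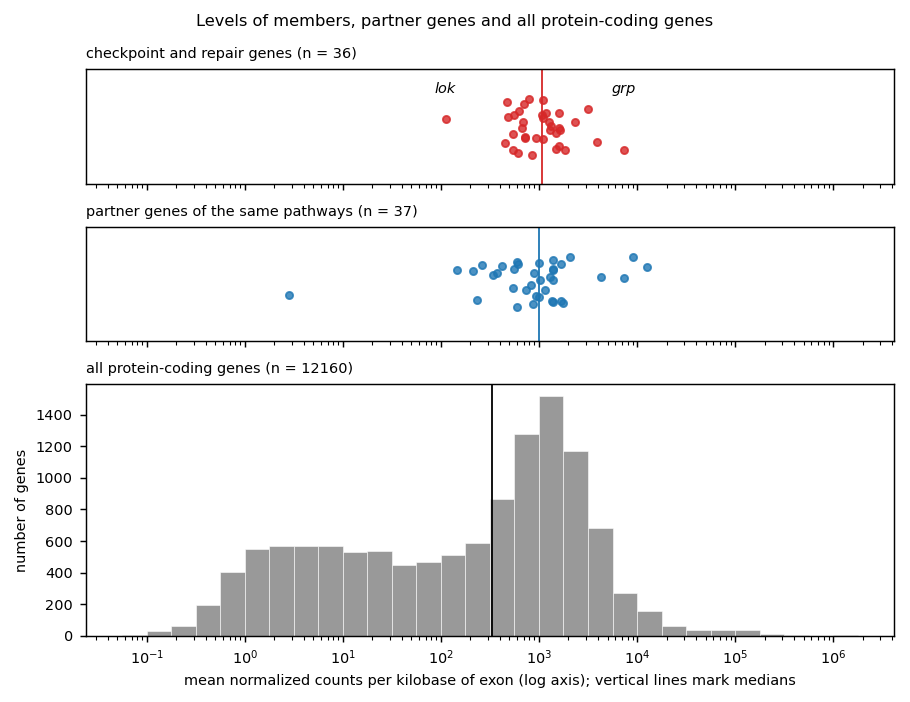
Mean normalized counts per kilobase of exon on a log axis for the 36 checkpoint and repair genes (top, 1 point a gene, spread vertically only to be seen), 37 partner genes of the same pathways (middle) and all 12160 protein-coding genes (bottom, number of genes per bin). Vertical lines mark the medians, 1083 for the members, 995 for the partners and 329 for all protein-coding genes, and lok and grp are the lowest and highest members.

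Checkpoint signalling held both ends of the range. grp (FBgn0261278, chromosome 2L, 16680054 to 16699926), which encodes Chk1, had the highest level of all members, with a mean of 22343 normalized counts or 7328 per kilobase, at percentile 96.3 of protein-coding genes. lok (FBgn0019686, chromosome 2L, 20061422 to 20064381), which encodes Chk2, had the lowest, with 272 normalized counts or 112 per kilobase, at percentile 41.3. The level of grp was 65.7 times that of lok per kilobase. The next member above lok, rad50, had 4.07 times its level, and the median member had 9.71 times. Without division by length the next member was spn-D, at 2.06 times lok (561 against 272 normalized counts). Per kilobase of exon, lok was the only member below the protein-coding median. Without division by length, spn-D (percentile 46.8) lay below it too. Every library here was chk2 mutant and none without that mutation was analysed here, so the effect of the chk2 allele and the usual lok level cannot be told apart. grp shares 7.31% of its exon bases with squ on the same strand (mean 6144), and reads there cannot be assigned to 1 of the genes. How far squ adds to the value of grp was not tested.

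The sensor kinases lay close together. tefu, the ATM kinase, had 560 normalized counts per kilobase and mei-41, the ATR kinase, had 476, a ratio of 1.18. mus304, which encodes the ATRIP partner that brings ATR to single-stranded DNA, had 1110, so that mei-41 stood at 0.428 of its partner. Without division by length the order turned round, with mei-41 at 1.20 times mus304, since the exons of mei-41 are 7899 bases long and those of mus304 2816. mus101, the TopBP1 protein that activates ATR, had 1323 per kilobase. p53 (FBgn0039044, chromosome 3R, 23049657 to 23054082) had a mean of 1498 normalized counts or 701 per kilobase, at percentile 60.4. Of its exon bases, 38.0% are shared with the antisense gene asRNA:CR46089 (mean 552) on the opposite strand. Whether the counting used strand is not stated in the sources used here, so part of the p53 value may be antisense reads. The 3 members nearest to p53 in log2 level per kilobase were Fancd2, okr and spn-B, each within a ratio of 0.990 to 1.03.

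**Figure D2:**
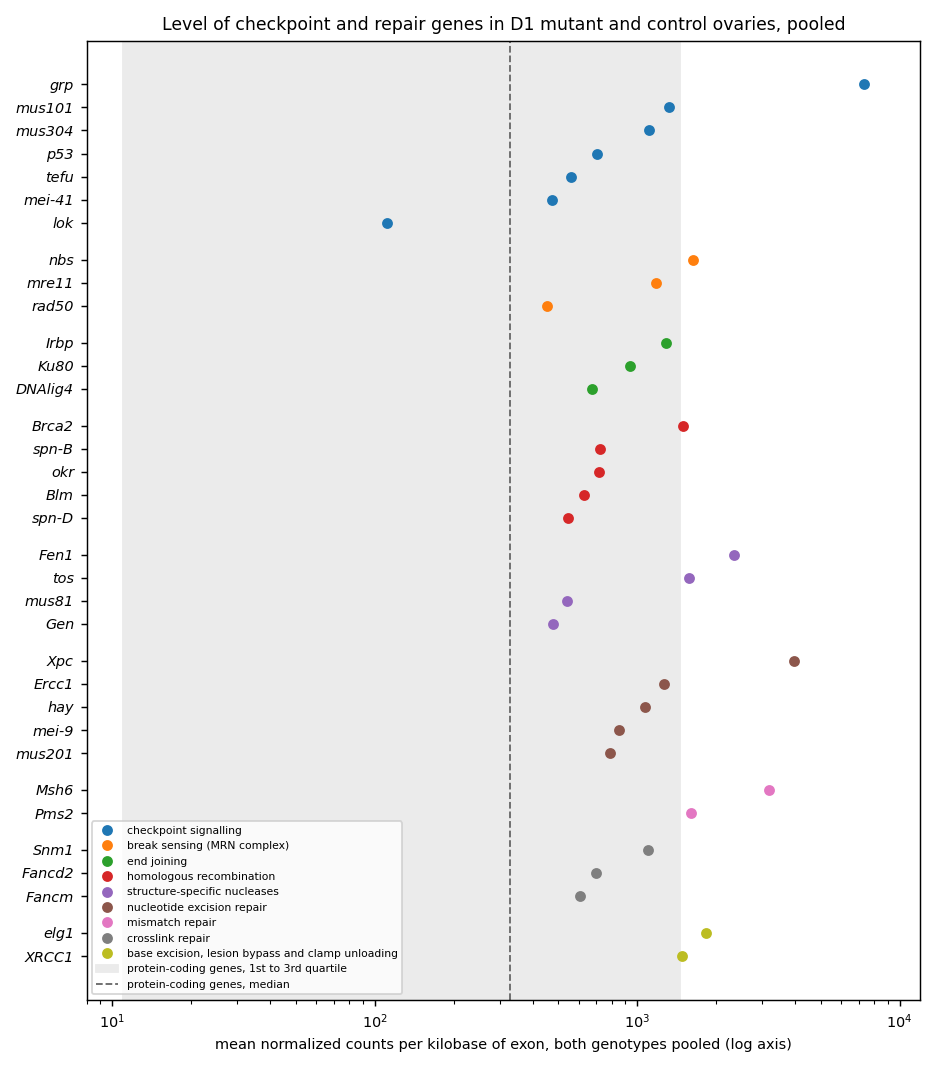
Mean normalized counts per kilobase of exon, on a log axis, for 34 of the 36 genes, grouped and coloured by role, with both genotypes pooled by the authors. The grey band spans the quartiles of all protein-coding genes (11.0 to 1450) and the dashed line their median (329), and only lok lies left of that line.

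The MRN complex recognises and trims the ends of broken DNA. Its nuclease gene mre11 had 1181 normalized counts per kilobase and nbs, which recruits ATM, had 1639. The third subunit gene, rad50, had 454, so that nbs stood at 3.61 times and mre11 at 2.60 times rad50. Without division by length these ratios were 2.31 and 1.29. In end joining, the subunits of the Ku ring that holds broken ends had levels of 1287 for Irbp (Ku70) and 942 for Ku80. DNAlig4, the ligase that seals the ends, had 675. The gene listed as DNApol-theta, whose polymerase joins ends at short stretches of matching bases, had a mean of 4714 normalized counts or 734 per kilobase, at percentile 61.2.

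In homologous recombination, a broken strand is paired with an intact template. Brca2, which acts early in that step, had 1495 normalized counts per kilobase. spn-B and spn-D, needed for meiotic recombination in the female germline, had 721 and 547, a ratio of 1.32. okr, the Rad54 motor protein, had 718, and the helicase gene Blm, which takes recombination intermediates apart, had 630.

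The nucleases grouped here as structure-specific ranged over 4.88 times per kilobase, with Fen1 highest and Gen lowest. Without division by length tos was highest (3782 normalized counts, against 3217 for Fen1), and the range was 3.48 times. The ratio of Fen1 to Gen was then 2.96. Fen1, which removes flaps left by replication, had 2335 normalized counts per kilobase, and tos, the Exo1 exonuclease, had 1583. mus81 and Gen, which cut recombination intermediates, had 542 and 479.

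Excision repair of bulky lesions contained the second highest member. Xpc, which finds the distorted DNA, had a mean of 19070 normalized counts or 3948 per kilobase, at percentile 92.2. The other members of this repair were lower. hay, the XPB helicase, had 1075 per kilobase, and Ercc1 had 1262. mei-9, the XPF nuclease that pairs with Ercc1, had 854, and mus201, the XPG nuclease, had 789. Xpc stood at 5.00 times mus201. mei-9 stood at 0.677 of Ercc1 per kilobase but at 2.57 times Ercc1 without division by length.

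In mismatch repair, Msh6, a subunit of the sensor that binds mismatches, had a mean of 12987 normalized counts or 3183 per kilobase. Pms2, which nicks the strand to be replaced, had 1600. Crosslink repair genes had a median of 694, with 1100 for the nuclease gene Snm1, 694 for Fancd2 and 606 for the translocase gene Fancm. elg1, which unloads the replication clamp, had 1831, and was the only member that the table marks as a gene associated with transposon repression. XRCC1, the scaffold of single-strand break repair, had 1483.

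**Figure D3:**
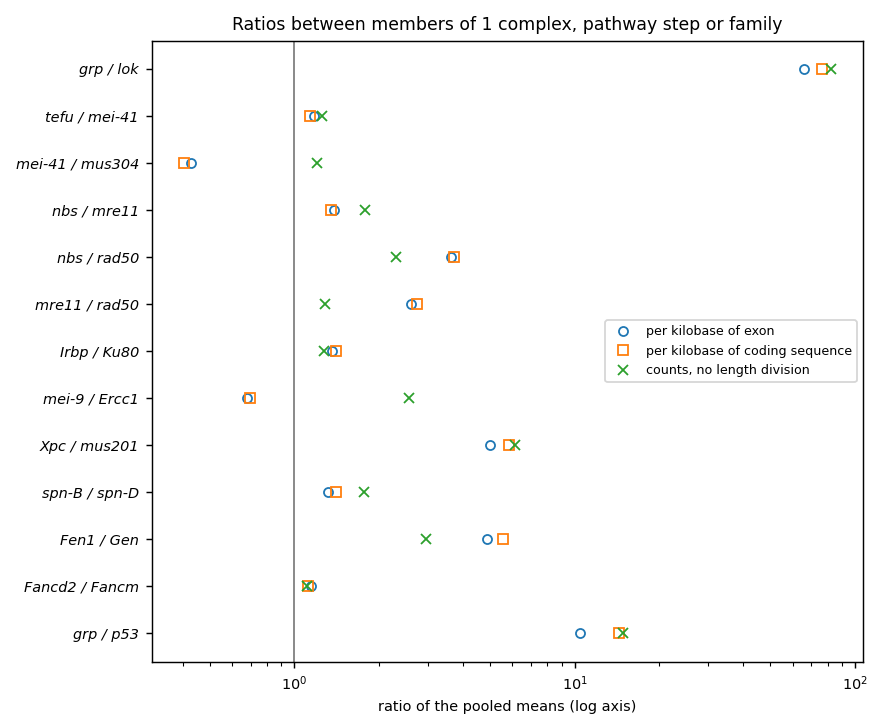
Ratio of the authors' pooled means between members that share a complex, a pathway or a family, on a log axis. Circles are per kilobase of exon, squares per kilobase of coding sequence and crosses without division by length. The vertical line marks equal levels, and grp over lok is farthest from it on each scale (65.7, 76.4 and 82.2), while mei-41 over mus304 and mei-9 over Ercc1 lie on either side of it depending on the scale.

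The choice of pairs was made after the levels had been seen. Identity of the translated coding sequences was taken over aligned residues. It was 36.8% for lok and grp, 29.0% for spn-B and spn-D, 29.0% for tefu and mei-41, and 22.3% for Irbp and Ku80. As a share of the shorter protein, the values in the same order were 21.4%, 25.9%, 23.3% and 18.4%. Over aligned residues, the 4 nucleases of the family that holds Fen1, tos, Gen and mus201 were identical at 26.9% to 32.0% in pairs.

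Many members lie close to other genes. In 22 of 36 (61.1%) some exon bases were shared with another annotated gene, against 36.4% of protein-coding genes in the table. The share was over 10% of bases in 6 members, namely p53, okr, mus81, spn-B, grp and mei-9. Only grp, hay and mei-9 shared bases on the same strand. In 18 of 36 (50%) the start lay head to head with that of another protein-coding gene within 500 bp, against 27.2% of protein-coding genes, with a median distance of 234.5 bp. The start of lok lay 52 bp from that of barr, a condensin gene with 1564 normalized counts per kilobase. These counts were made after the levels had been seen and were not tested. The protein-coding genes compared include many close to silent in ovaries, and shares for those with a mean of at least 10 were not computed.

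The promoters of the members, 250 bases before to 50 after the annotated start, were searched on both strands for letters known from fly promoters. These were the DRE (TATCGATA), which the factor DREF binds at many replication genes, the E-box CAGCTG and core promoter motif 1 (GGTCACACT). The DRE was found in 6 of 36 members (16.7%), against 9.997% of 12144 promoters of protein-coding genes and 12.2% of those with a mean of at least 10. Motif 1 was found in 5 members (13.9%, against 6.70%, and 8.34% of those with a mean of at least 10). The E-box was found in 4 (11.1%, against 18.9%, and 20.6% of those with such a mean). At least 1 of them was present in 14 members (38.9%, against 31.5%), and Fancd2 had both the DRE and motif 1. Examples are printed from RefSeq release 6, on the strand of each gene, with the matched letters in capitals. The p53 promoter is shown because it holds the DRE letters at 2 places. The mus101 promoter, not shown, also holds them at 2 places. The rest are shown because they come from the ATR kinase, Ku, crosslink repair and recombination genes. In spn-B the E-box was found at 2 places, of which 1 is printed.
p53, DRE, chr3R:23054127-23054155, minus strand: atcctTATCGATAgctTATCGATAgccat
mei-41, DRE, chrX:16391669-16391696, plus strand: ctgccaaacaTATCGATAgccacaagtg
Ku80, DRE, chr2L:15771177-15771204, minus strand: gtgctagaaaTATCGATAagcgataggt
Fancd2, DRE, chr3R:20816201-20816228, minus strand: ccaccgcggcTATCGATAaaaactgatg
Blm, motif 1, chr3R:11741787-11741815, minus strand: gtggaccgacGGTCACACTaattcctatt
spn-B, E-box, chr3R:14328020-14328045, plus strand: ttggcgccaaCAGCTGatttcaaccg
The 6 members with the DRE had a median of 822 normalized counts per kilobase, and the other members 1095. Over all promoters, genes with the DRE had a median of 1298 and genes without it 209. The other letters had the same order, with 1411 against 239 for motif 1 and 668 against 234 for the E-box. These promoters include those of genes with a mean below 10, and medians without such genes were not computed. A match is a run of letters and does not show that a factor binds there.

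**Figure D4:**
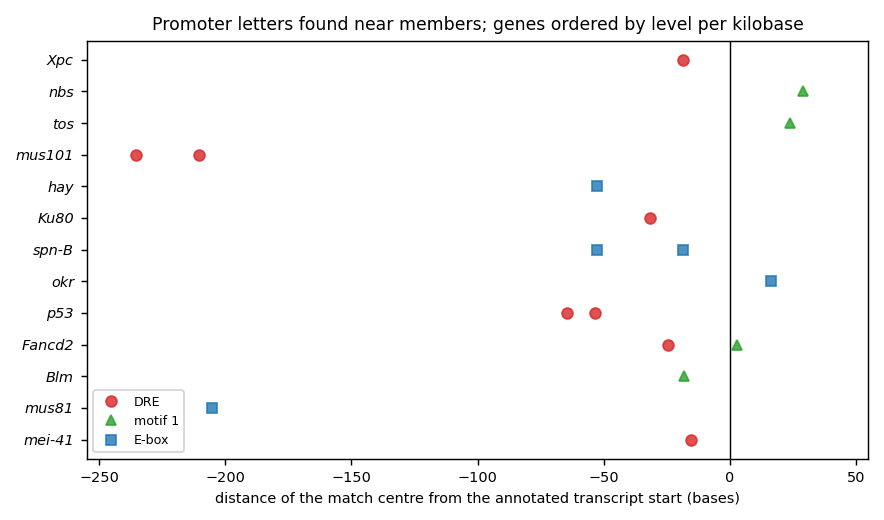
Distance in bases from the annotated transcript start (0, vertical line) to the centre of each match, for 13 of the 14 members with a match, ordered from the highest level per kilobase (Xpc, top) to the lowest (mei-41, bottom), with circles for the DRE, triangles for motif 1 and squares for the E-box. The DRE circles all lie before the start, while the motif 1 triangles of nbs, tos and Fancd2 and the E-box square of okr lie after it.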

How the data were processed

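RNA was sequenced from 3 D1 mutant and 3 heterozygous control ovary samples, as paired reads of 150 bases. The 6 small RNA samples of the series were not analysed here. Reads were trimmed by the authors (BBTools), mapped with STAR on BDGP6.32, assigned to genes and transposons by TEtranscripts, and normalized in DESeq2 1.37.4. Strand setting and annotation release are not given in the sources used here. The deposited signal used here is the authors' mean of normalized counts over all 6 libraries. The 5 other numeric columns (log2 fold change, its error, the statistic and the p-values), and the marks of raised or lowered genes, are the authors' comparison and were not used, so no test between genotypes was made. Depth per library is unknown.

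Of 18049 entries, 9 had no name and were left out. Exon lengths came from the BDGP6.54 annotation and were matched by FlyBase identifier for 14241 of 14303 genes (99.6%). Percentiles are among 12160 protein-coding genes. Promoters and coding sequences were read from the RefSeq release 6 genome, the release on which BDGP6.32 is built, because no protein or promoter table was used. Proteins were aligned globally with Biopython 1.88, with no penalty for gaps at the ends. Python 3.11.15 and pandas 2.3.3 were used. The functions for merged exon length, percentiles and motif search were tested on simulated data. Those for exon overlap, head to head starts and protein alignment were not. Every listed gene found in the table was named, except for some items that are not reported here. The members and lists were chosen with earlier results of these data known. Alternatives were other gene lengths, no length division, a minimum mean of 10, all named genes as background, members without shared exon bases, and synonyms.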

Additional observations from a re-analysis of the deposited data

How the results depend on the processing

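The median level of the members, 1083 per kilobase of exon, was 1087 with the longest transcript, 1206 with coding length, 3054 without length division (as mean normalized counts), 866 for the 14 members with no shared exon bases and 1075 with PolQ added under its synonym. A minimum mean of 10 left it as it was. The median percentile, 68.7, was 68.2 with the longest transcript, 62.1 with coding length, 74.3 without length division, 64.2 for members with no shared bases, 60.5 among genes with a mean of at least 10, 71.8 among all named genes and 68.6 with the synonym. The count of members above the protein-coding median was 35 with the longest transcript, 32 with coding length and 34 without length division. The largest shift of 1 member was 26.9 percentile points, for tefu without length division. lok was lowest and grp highest under each length choice and without length division. Across members, exon length and mean count had a Spearman correlation of 0.63 (n = 36 genes), and exon length and level per kilobase one of -0.07. No paired analysis was possible because the table used holds no values per library, and for the same reason no library could be left out. Depth and replicate spread, which limit all of these values, are unknown.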

Other observations

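Of 42 partner genes of the same pathways, 39 were in the table and 37 had an annotated length. Their median was 995 normalized counts per kilobase, and 32 lay above the protein-coding median. The highest was PCNA, the replication clamp, with 12556 per kilobase, followed by Rad23, the partner of Xpc, with 9150, and RpA-70, which coats single-stranded DNA, with 7391. Parp, a sensor of DNA strand breaks, had 4285. Without division by length Rad23 was highest (18547 normalized counts), followed by RpA-70 (15780) and PCNA (13435). The lowest was hdm, a meiotic recombination gene, with 2.79 per kilobase (a mean of 4.08 normalized counts). Among the checkpoint clamp genes, Rad1 had 552, Rad9 374 and Hus1-like 338, and Claspin, which helps ATR activate Chk1, had 265. All 4 lay below grp, the Chk1 gene, at 7328, as did Rad17 (1384) and mu2 (1289), while RpA-70 (7391) lay just above it. Without division by length, RpA-70 lay below grp (15780 against 22343 normalized counts).

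Values follow for 6 genes that p53 is known to activate after damage in flies. The cell death genes rpr and skl had means of 19.6 and 10.3 normalized counts, hid had 407 and egr had 453, and per kilobase these 4 lay below the protein-coding median. Corp, a negative regulator of p53, had 1945 and the transcription factor gene Xrp1 had 2047, and both lay above it. As all libraries were chk2 mutant and the values pool both genotypes, these levels say nothing of a response to D1 loss.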
